A study of Mus musculus with 8 samples.

Results

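Liver-enriched transcription factors were examined in isolated mouse hepatocytes that carried or lacked the cannabinoid 1 receptor gene Cnr1. The set held 9 genes named for their part in setting hepatocyte identity, Hnf4a, Foxa1, Foxa2, Foxa3, Cebpa, Cebpb, Onecut1, Prox1 and Gata4, out of 21368 genes that could be named on the arrays. They were found by matching the accession of each probe to the RefSeq gene, which gave 10 probes, with 2 for Foxa2 and 1 for each of the others. The question was whether the levels of these regulators, and of genes they are known to control, differed between hCNR1-/- and hCNR1+/+ hepatocytes.

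Hepatocyte total RNA came from 4 hCNR1+/+ and 4 hCNR1-/- mice, all male, 12 to 14 weeks old and on the standard diet, and each mouse had 1 one-colour Agilent array. The hCNR1-/- mice came from CNR1flox/flox mice bred to mice with an albumin-Cre transgene, so that the albumin promoter restricts Cre to hepatocytes, and their strain label was CNRO Alb-Cre. The hCNR1+/+ mice were control littermates with the strain label CNRO, and the labels do not say whether they carry floxed alleles. Both genotypes were untreated as far as the labels say, and the model removes the receptor from hepatocytes from the time the albumin promoter is active, not at a chosen age.

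Hepatocyte identity is held by a small group of transcription factors that bind one another's genes as well as those for plasma proteins, bile acid synthesis, gluconeogenesis and lipid transport. HNF4 alpha is a nuclear receptor at the centre of this circuit, the FOXA proteins open chromatin so that other factors can bind, and the C/EBP proteins are leucine zipper factors of metabolism and the acute phase response. Onecut1 encodes HNF6, a homeodomain factor of liver and bile duct development, Prox1 a homeodomain factor of hepatocytes and lymphatic endothelium, and Gata4 a zinc finger factor that acts early in liver development and in sinusoidal endothelium.

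None of the 9 factors was called different between the genotypes. Hnf4a, Foxa1, Foxa2, Foxa3, Cebpa, Cebpb and Gata4 were well above background and could be tested, and 0 of these 7 passed an adjusted p below 0.05 in limma, against 4.24% of the 11072 genes tested, 1.3% being lower and 2.94% higher in hCNR1-/-. At the looser rule of a fold change above 2 with an unadjusted p below 0.05, 0 of 7 were called, against a background of 8.53%. The count at an unadjusted p below 0.05 was also 0 of 7, against 21.6% of all genes, and the groups overlapped for all 7, whereas 17.8% of all genes had groups that did not overlap. Onecut1 and Prox1 were too dim for a fold change.

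Sequence upstream of the factor genes is shown here because factors of this circuit are known to bind one another's promoters. Hnf4a is transcribed from more than 1 start, and which of them its 1 array probe reads is not known, since probe positions were not available. The windows are the 250 bases before annotated RefSeq starts in assembly GRCm38.p6, written 5′ to 3′ on the gene's strand, and the promoter table held 12 of them for 8 of the 9 genes, with no entry for Gata4. Both strands were searched for motifs of the factors. The FOXA motif was searched as TGTTTAC, with the common variant TGTTTGC counted separately. The C/EBP motif was searched as TTGCNNAA, and the half-site of HNF1, another homeodomain factor of liver, as GTTAAT. Part of the HNF4 motif was searched as AAAGTCC, the core of the HNF6 motif as ATTGAT, and the GATA motif with flanking bases as AGATAA. Capitals mark the matches, which appear reverse-complemented where the match is on the other strand, and no 2 matches overlapped in the windows printed.
Hnf4a upstream start: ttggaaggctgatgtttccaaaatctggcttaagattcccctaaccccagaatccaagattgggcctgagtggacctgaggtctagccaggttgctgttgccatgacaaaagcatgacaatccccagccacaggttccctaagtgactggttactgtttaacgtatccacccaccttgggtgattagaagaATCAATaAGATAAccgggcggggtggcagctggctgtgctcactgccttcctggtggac
Hnf4a downstream start: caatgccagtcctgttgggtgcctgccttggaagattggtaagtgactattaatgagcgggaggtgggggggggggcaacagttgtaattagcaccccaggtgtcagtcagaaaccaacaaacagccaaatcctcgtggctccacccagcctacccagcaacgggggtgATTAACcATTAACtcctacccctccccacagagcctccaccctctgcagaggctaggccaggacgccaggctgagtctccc
Foxa1: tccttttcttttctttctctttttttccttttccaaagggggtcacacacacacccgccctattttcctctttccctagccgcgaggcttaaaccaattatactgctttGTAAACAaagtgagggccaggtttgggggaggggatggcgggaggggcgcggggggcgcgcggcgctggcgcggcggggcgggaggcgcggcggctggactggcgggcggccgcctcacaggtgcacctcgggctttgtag

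The Hnf4a upstream window lies at chr2:163506607-163506856 on the plus strand and precedes the start that is used mainly outside adult liver. It held an ATTGAT match 59 to 54 bases before the start and an AGATAA match at 52 to 47. The downstream window, at chr2:163546905-163547154, precedes the start known as the main one of adult hepatocytes and held a pair of GTTAAT matches, at 81 to 76 and 74 to 69 bases. The Foxa1 window, at chr12:57546112-57546361 on the minus strand, held TGTTTAC, the motif of its own protein family, at 141 to 135 bases. Of the other windows, the most downstream of 3 Foxa2 windows held GTTAAT and AGATAA, the most upstream one held ATTGAT, and 1 of 2 Prox1 windows held TGTTTGC, so that 6 of 12 windows had any match. Those of Foxa3, Cebpa, Cebpb and Onecut1 held none of these letters.

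Such matches are common in sequence of this length. Over all 32851 promoter windows of the same length, 3.17% held TGTTTAC, 4.3% TGTTTGC, 9.56% TTGCNNAA, 6.43% GTTAAT, 3.58% AAAGTCC, 6.72% ATTGAT and 9.99% AGATAA, and 11400 windows held at least 1 of them. The factor windows were richer in G and C, with a median of 63.4% against 52.4% over all windows. A match describes the letters and was not read as a bound site.

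**Figure D1:**
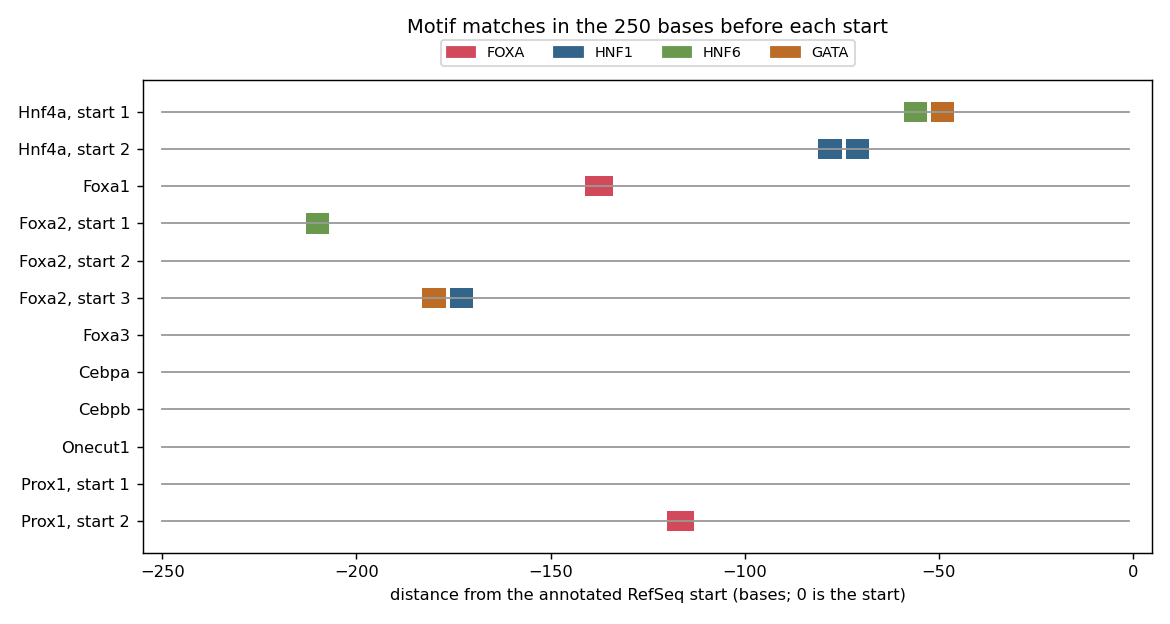
Motif matches (coloured boxes) in the 250 bases before each annotated start of the factor genes, drawn along the gene's direction with the start at 0 on the axis in bases; where a gene has several starts, start 1 is the most upstream. 6 of 12 windows hold a match, and those of Foxa3, Cebpa, Cebpb and Onecut1 are empty.

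Arrays were compared on the log2 spot intensity less the array's own 75th percentile, and this difference is the log2 signal given below, in the order of replicates 1 to 4. It compares the same probe between arrays and was not used to rank one gene against another. The 75th percentile itself ran from 62.0 to 139 intensity units in hCNR1+/+ and from 29.3 to 124 in hCNR1-/- arrays, and the share of spots well above background from 28.6% to 42.3%. The dimmest array by both measures was hCNR1-/- replicate 4, whose mean correlation with the others of its genotype was 0.942, against 0.964 to 0.980 for the other 7. For the results that it moved most, the value without it is given as well. All arrays were on 1 slide, hCNR1+/+ in one row and hCNR1-/- in the other, which means that the row and the genotype cannot be told apart. The Cnr1 probe was well above background on 0 of 8 arrays, so the arrays do not check the genotype labels.

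The tissue label was checked with 15 hepatocyte markers, all of which were measured, and their mean log2 signal ran from 8.65 to 9.52 in hCNR1+/+ and from 8.41 to 8.97 in hCNR1-/- preparations. The 9.52 was on hCNR1+/+ replicate 4, and the other hCNR1+/+ arrays were at 8.65 to 8.89. That array had the lowest 75th percentile among the hCNR1+/+ arrays, 62.0. None of the hepatocyte markers passed an adjusted p of 0.05. Alb, whose promoter drives the Cre, was at 11.10 ± 0.24 (SD, n = 4) log2 units in the controls, against 10.86 ± 0.13 (SD, n = 4) after Cre deletion, with a limma adjusted p = 0.538. Of 14 Kupffer cell markers 11 were measured, Clec4f and Vsig4 among them, while Timd4 was above background on 0 arrays, Lyz2 on 1 and Adgre1 on 3. All 11 were lower in hCNR1-/- by their fitted value, and Ctss and Marco passed the adjusted test. Their mean log2 signal was 1.23 to 2.43 in hCNR1+/+ and 0.19 to 1.01 in hCNR1-/- preparations, without overlap. Of 12 stellate cell, 10 cholangiocyte and 14 leukocyte markers, 2, 4 and 3 were measured, and none of these passed. In bulk RNA, fewer cells of a type and less RNA per cell cannot be told apart, and the part of these cells in the values below was not tested.

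Hnf4a, the nuclear receptor that drives many genes of the differentiated hepatocyte, had log2 signals of 7.81, 7.41, 8.16 and 8.29 in hCNR1+/+ replicates 1 to 4. In hCNR1-/- replicates 1 to 4 they were 7.56, 7.94, 7.98 and 6.69. The groups overlapped, and the low value of the last array widened the hCNR1-/- group on one side only. The means were 7.92 ± 0.39 (SD, n = 4) and 7.54 ± 0.60 (SD, n = 4), a log2 fold change of -0.38 with a standard error of 0.33 and a limma adjusted p = 0.545 (exact permutation p = 0.343). That is 77.1% of the hCNR1+/+ level with a 95% interval of 46.1% to 129%, so the interval reached below 50%. Without hCNR1-/- replicate 4 the log2 fold change was -0.09, with an interval of -0.65 to 0.46.

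The 3 FOXA genes encode winged-helix proteins with closely related DNA-binding domains. Foxa1, which acts with Foxa2 when liver is first specified, had log2 signals of 3.64, 3.17, 3.46 and 3.0 in hCNR1+/+ mice and 3.60, 3.90, 3.89 and 2.18 in hCNR1-/- mice. Of the hCNR1-/- arrays 2 were above every hCNR1+/+ array and 1 was below every one. The log2 fold change was 0.07 (standard error 0.38, 95% interval -0.78 to 0.93), with an adjusted p = 0.930 in limma and an exact permutation p = 0.914. Foxa1 was the factor that depended most on the dimmest array. Without hCNR1-/- replicate 4 its log2 fold change was 0.48 (standard error 0.20, interval 0.03 to 0.93), with an unadjusted p = 0.0406 and an adjusted p = 0.138 in limma, and the median over all genes was then 0.17.

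Foxa2, a regulator of bile acid and lipid metabolism in adult liver, was read by 2 probes. The brighter one had log2 signals of 5.18, 5.15, 5.51 and 5.67 in hCNR1+/+ mice and 5.32, 5.70, 5.59 and 4.91 in hCNR1-/- mice. The dimmer one had 3.1, 3.37, 3.61 and 3.85 in hCNR1+/+ mice and 3.51, 3.86, 3.63 and 2.96 in hCNR1-/- mice. Both probes placed hCNR1-/- replicate 4 lowest and replicate 2 highest of the 8 arrays. The brighter probe gave 0.0025 as its log2 fold change (standard error 0.24, 95% interval -0.54 to 0.54), with an adjusted p = 0.998 in limma and an exact permutation p = 1. The dimmer probe gave 0.0085, with an adjusted p = 0.990 in limma over 19985 probes.

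Foxa3, the member of the family that persists at high level in adult liver, had log2 signals of 4.35, 4.11, 4.26 and 5.15 in hCNR1+/+ replicates and 4.19, 4.38, 3.82 and 4.55 in hCNR1-/- replicates. One hCNR1+/+ array stood above the rest and the others mixed. The log2 fold change was -0.23 (standard error 0.28, 95% interval -0.86 to 0.39), with an adjusted p = 0.660 in limma and an exact permutation p = 0.514. The dimmest array was not low for this gene.

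Cebpa, a factor of mature hepatocytes that restrains proliferation and drives gluconeogenic and urea cycle genes, had log2 signals of 4.81, 5.14, 5.15 and 5.32 in hCNR1+/+ replicates. In hCNR1-/- replicates they were 4.73, 4.73, 5.04 and 4.74. Of these, 3 lay below every hCNR1+/+ array and replicate 3 lay inside the hCNR1+/+ range, so the groups overlapped through a single array. The log2 fold change was -0.30 with a standard error of 0.20, the smallest among the 7 factors, and a 95% interval of -0.74 to 0.15. This was 81.5% of the hCNR1+/+ level, with an adjusted p = 0.423 in limma and an exact permutation p = 0.0571, where the smallest p that 4 against 4 arrays allow is 0.0286.

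Cebpb, the family member induced in the acute phase response and in regeneration, had log2 signals of 8.04, 8.38, 8.79 and 9.34 in hCNR1+/+ mice and 7.73, 8.61, 8.50 and 8.75 in hCNR1-/- mice. The spread within each genotype exceeded the difference between them. The log2 fold change was -0.24 (standard error 0.33, 95% interval -0.98 to 0.50), with an adjusted p = 0.704 in limma and an exact permutation p = 0.514. The 14 immediate-early genes measured beside it, which respond quickly to cell isolation, had a mean log2 signal of 3.06 to 3.98 in hCNR1+/+ and 2.76 to 3.66 in hCNR1-/- preparations, and none passed the adjusted test.

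Gata4, a zinc finger factor that is also used by sinusoidal endothelium, was well above background on all 8 arrays. Its log2 signals were 1.43, 1.52, 1.20 and 1.37 in hCNR1+/+ mice and 1.74, 1.56, 1.5 and 0.76 in hCNR1-/- mice. The hCNR1-/- arrays held both the 2 highest values and the lowest. The log2 fold change was 0.0099 (standard error 0.25, 95% interval -0.54 to 0.56), with an adjusted p = 0.987 in limma and an exact permutation p = 1. The endothelial markers measured, 9 of 14, had a mean log2 signal of 0.24 to 1.05 in hCNR1+/+ and 0.26 to 0.53 in hCNR1-/- preparations.

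The probe for Onecut1 was well above background on 0 of 8 arrays, with unscaled intensities of 3.28 to 10.2 in hCNR1+/+ and 3.36 to 5.40 in hCNR1-/- arrays. Prox1 was well above background on replicate 1 of each genotype and on no other array, with unscaled intensities of 7.03 to 32.9 in hCNR1+/+ and 3.47 to 23.9 in hCNR1-/- arrays. Both genes are known in hepatocytes, and a difference between the genotypes was not detectable with these probes.

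**Figure D2:**
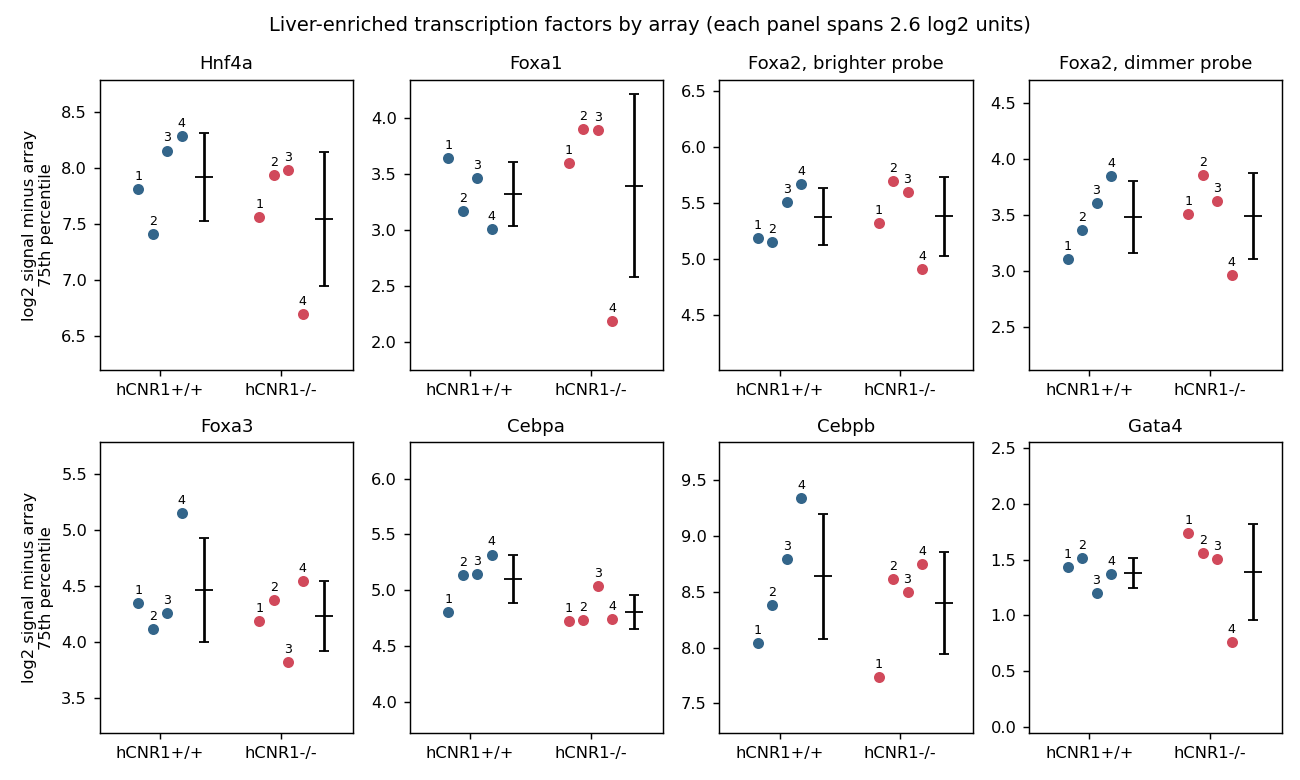
Log2 signal of the 7 tested factors (8 probes) on each of the 8 arrays; numbers are replicate numbers, bars are the mean and SD of 4 arrays, and every panel spans the same number of log2 units on the vertical axis. The genotypes overlap in every panel, and hCNR1-/- replicate 4 is the lowest array for Hnf4a, Foxa1, Foxa2 and Gata4.

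Among the 7 factors, 4 had fitted values below zero and 3 above, with a median log2 fold change of -0.23, against 0.08 over all genes tested. The median size of their differences was 0.23 log2 units, against 0.36 over all genes. The standard errors were like those of other genes, with a median of 0.28 against 0.30, and ran from 0.20 to 0.38. The 95% interval lay within a 2-fold change either way for 6 of 7 factors, the exception being Hnf4a. That count depended on the processing, with 0 of 7 intervals inside 2-fold when arrays were scaled to their median or not scaled, and 7 of 7 with array weights. It also depended on single arrays, since 3 of 7 intervals were inside when hCNR1+/+ replicate 1, 2 or 3 or hCNR1-/- replicate 2 was left out.

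Single arrays shaped the pattern among the factors. The dimmest array, hCNR1-/- replicate 4, was the lowest of 8 for 4 of the 7 factors, while hCNR1+/+ replicate 4 was the highest for Hnf4a, Foxa3, Cebpa and Cebpb. The share of all genes lowest or highest on these arrays was not counted, so this is not read as a trait of the factors. The signs for Foxa1, Foxa2 and Gata4, whose values lay near zero, turned when single arrays were left out or the scaling was changed. Those for Hnf4a, Foxa3, Cebpa and Cebpb were below zero under 15 other processing choices, with the deposited z-scores and in the 8 fits that left out 1 array, but single arrays took some of them almost to zero. Without hCNR1+/+ replicate 4, Foxa3 was at -0.0062 and Cebpb at -0.0063, and without hCNR1-/- replicate 1 Cebpb was at -0.018. With 1 array left out, Hnf4a ran from -0.54 to -0.09 and Cebpa from -0.39 to -0.22. Quantile normalization put Hnf4a at -0.66 (interval -1.31 to -0.012), Cebpb at -0.56, Cebpa at -0.43 and Foxa3 at -0.36. Adding normexp background correction put Hnf4a at -0.69 (interval -1.25 to -0.13), Cebpb at -0.58, Cebpa at -0.36 and Foxa3 at -0.36. With array weights Hnf4a was at -0.11, Cebpb at -0.26, Cebpa at -0.26 and Foxa3 at -0.16. No factor passed the adjusted threshold in any of these fits. Without scaling the median over all genes was -0.47, and Hnf4a at -0.93 was then 0.46 below that median. The distance was the same with scaling by construction, since the scaling shifts all genes of an array by 1 constant. Quantile normalization can move it, and Hnf4a relative to the median was then at -0.65, or -0.69 with normexp background correction as well.

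**Figure D3:**
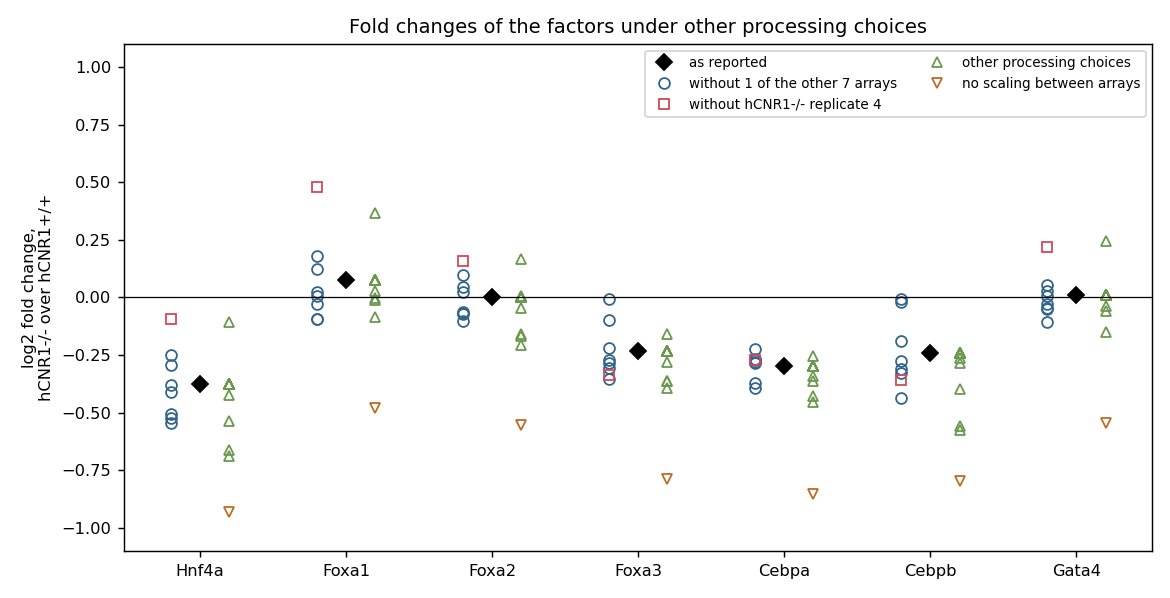
Log2 fold change (hCNR1-/- over hCNR1+/+, vertical axis) of each tested factor as reported, with 1 array left out, and under other processing choices. Values for Foxa1, Foxa2 and Gata4 scatter around zero, those of Foxa3 and Cebpb reach up to -0.0062 and -0.0063 with 1 array left out, and the values without scaling are lowest for every factor.

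For each factor measured on all 8 arrays, the genes with the most similar profile were sought among the 8339 genes above background on every array, by Pearson's r of log2 signal over the 8 arrays. Since each is the highest of so many genes, no p is given, and the arrays share their scaling. Hnf4a was most like Pogz (r = 0.986) and Sash1 (r = 0.982), Foxa1 most like Tdrp (r = 0.983) and Uhrf1bp1 (r = 0.979), and Foxa2 most like Fancf (r = 0.984) and Sart3 (r = 0.974). Foxa3 was most like Git2 (r = 0.977) and Hamp (r = 0.973), the gene of the iron hormone hepcidin. The nearest profiles to Cebpb were those of Sult5a1 (r = 0.975) and Nat8f1 (r = 0.974), and to Gata4 those of Fam118b (r = 0.981) and Abhd5 (r = 0.979). Cebpa had less close neighbours, Ackr2 (r = 0.924) and Bnip3 (r = 0.922). With the 2 arrays farthest from the factor's median left out, r ran from 0.802 for Bnip3 to 0.989 for Fancf.

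The wider network was read from 31 other liver transcription factors, of which 27 could be tested. No gene of this list passed the adjusted test in limma, against 4.24% of all genes. At an unadjusted p below 0.05, 1 was lower and 4 were higher, against 21.6% of all genes in either direction, and 1 passed the fold rule, against 8.53%. Their median log2 fold change was -0.03 and the values ran from -0.64 to 1.00. Those furthest up were Nr5a2 (LRH-1, a nuclear receptor of bile acid and cholesterol genes) at 1.00 with an adjusted p = 0.133, Atf5 (a leucine zipper factor of the stress response) at 0.81 with an adjusted p = 0.0672, and Nr1h3 (the oxysterol receptor LXR alpha) at 0.56 with an adjusted p = 0.193, all from limma. Among those furthest down were Klf15 (a fasting-responsive factor of amino acid catabolism) at -0.64 and Nfib (a nuclear factor I protein) at -0.51, with adjusted p of 0.216 and 0.471 in limma.

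Atf5 had log2 signals of 9.43, 9.34, 9.05 and 8.88 in hCNR1+/+ mice and 9.88, 10.10, 9.71 and 10.23 in hCNR1-/- mice, and its groups did not overlap (exact permutation p = 0.0286). Nr5a2 had 0.18, -0.73, -0.03 and -0.22 in hCNR1+/+ mice and 0.60, 0.38, 0.46 and 1.77 in hCNR1-/- mice, where the dimmest array gave the value farthest from the others. Without that array Nr5a2 was at 0.68 with an adjusted p = 0.0845 in limma and no longer passed the fold rule, Atf5 was at 0.73 with an adjusted p = 0.0440 in limma, which is past the threshold, and Nfib was at -0.14. Nr2f1, Nr0b2, Zhx2 and Nfia were not above background on enough arrays.

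Of 30 genes known as targets of these factors 28 were tested, 14 below and 14 above zero, with a median log2 fold change of -0.01, and 1 fell and 2 rose at an adjusted p below 0.05 in limma, against 1.3% of all genes lower and 2.94% higher. By the fold rule 2 were lower and 2 higher, against 8.53% of all genes in either direction. Cyp7a1, the rate-limiting enzyme of bile acid synthesis, was above background on 0 arrays.

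Abcc2, the canalicular pump for bilirubin conjugates, had log2 signals of 2.05, 2.20, 1.97 and 2.43 in hCNR1+/+ mice and 3.47, 3.11, 3.45 and 3.06 in hCNR1-/- mice. Every hCNR1-/- array was above every hCNR1+/+ array. The mean rose from 2.16 to 3.27, which is 2.16-fold, or 1.11 on the log2 scale with a standard error of 0.21 (limma adjusted p = 0.0258, exact permutation p = 0.0286).

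Apob, the structural protein of very low density lipoprotein, had 4.77, 5.32, 4.05 and 4.04 in hCNR1+/+ mice and 6.02, 5.50, 6.24 and 6.96 in hCNR1-/- mice. The closest arrays, hCNR1+/+ replicate 2 and hCNR1-/- replicate 2, were still apart. The mean rose from 4.55 to 6.18, which is 3.1-fold, or 1.63 on the log2 scale with a standard error of 0.38 (limma adjusted p = 0.0477).

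Orm1, an acute phase protein of plasma, had 7.80, 7.63, 7.49 and 8.28 in hCNR1+/+ mice and 6.95, 6.78, 6.92 and 6.12 in hCNR1-/- mice. The groups did not overlap. The mean fell from 7.80 to 6.69, to 46.4% of the control level, or -1.11 on the log2 scale with a standard error of 0.27 (limma adjusted p = 0.0494).

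Pck1, the gluconeogenic enzyme that C/EBP, HNF4 alpha and FOXA proteins are known to control, missed the adjusted threshold while its groups did not overlap. It had 4.99, 4.46, 5.31 and 6.17 in hCNR1+/+ mice and 3.01, 4.08, 4.0 and 2.62 in hCNR1-/- mice, and its log2 fold change of -1.81 had a standard error of 0.44 (limma adjusted p = 0.0515, exact permutation p = 0.0286). Other targets with large values were F7 (coagulation factor VII) at -0.93, Slc10a1 (the bile acid uptake carrier) at -0.75, Serpina1e (an alpha-1-antitrypsin gene, 1 of several near-identical copies) at 0.61 and F9 (coagulation factor IX) at 0.52, none past the adjusted test with all 8 arrays. Slc10a1 had log2 signals of 10.23, 10.37, 10.17 and 10.69 in hCNR1+/+ replicates and 9.23, 9.46, 9.31 and 10.45 in hCNR1-/- replicates. Of the hCNR1-/- arrays only replicate 4 lay inside the hCNR1+/+ range, against the fall on the others. Without hCNR1-/- replicate 4 the log2 fold change of Slc10a1 was -1.03 with an adjusted p = 0.0149 in limma, and 4 of 28 target genes were called. Calls over all 11072 genes rose in that fit too, with 1121 higher in hCNR1-/- against 325 with all 8 arrays. Lower calls numbered at most 323 in any fit with 1 array left out, against 144 with all 8 arrays. The count of 4 of 28 was therefore not read as a result about the targets. Serpina1e was at 0.32 without hCNR1-/- replicate 4.

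The calls for targets rested on narrow margins. With each array left out in turn, Abcc2 kept an adjusted p below 0.05 in 2 of 8 fits (without hCNR1+/+ replicate 4 and without hCNR1-/- replicate 4), Apob in 1 and Orm1 in 1 (both without hCNR1-/- replicate 4), while their log2 fold changes stayed between 1.05 and 1.20, 1.37 and 1.89, and -1.21 and -0.92. For Apob, the mean of its probes in place of the brightest gave an adjusted p = 0.133 in limma. Under 15 other processing choices with all 8 arrays, Abcc2 had an adjusted p below 0.05 in 11, Orm1 in 9 and Apob in 5. Pck1, which missed the threshold as reported, was below it in 8 of these 15, and in 0 of 8 fits with 1 array left out. The mean of the Kupffer cell markers was lower on every hCNR1-/- array than on any hCNR1+/+ array, as Orm1 was, and its part in these values was not tested.

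The windows before the Apob and Pck1 starts, shown because these genes had the highest and the lowest fitted value among the targets, hold matches to the motifs searched above, in capitals.
Apob: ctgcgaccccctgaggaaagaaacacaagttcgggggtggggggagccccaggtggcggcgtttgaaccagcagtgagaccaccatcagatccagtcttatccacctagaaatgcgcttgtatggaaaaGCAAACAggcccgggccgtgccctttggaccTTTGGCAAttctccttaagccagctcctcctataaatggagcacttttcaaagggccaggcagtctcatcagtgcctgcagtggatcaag
Pck1: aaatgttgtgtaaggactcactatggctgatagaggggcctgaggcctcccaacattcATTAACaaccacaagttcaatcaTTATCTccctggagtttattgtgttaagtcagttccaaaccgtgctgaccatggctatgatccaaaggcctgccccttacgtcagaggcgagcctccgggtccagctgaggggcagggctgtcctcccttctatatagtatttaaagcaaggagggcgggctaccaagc

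The Apob window, chr12:7977427-7977676 on the plus strand, held TGTTTGC at 121 to 115 bases before the start and TTGCNNAA at 90 to 83. The Pck1 window, chr2:173152823-173153072 on the plus strand, held GTTAAT at 192 to 187 and AGATAA at 169 to 164. No match to the FOXA, C/EBP or HNF4 motifs searched was in the Pck1 window. The Abcc2 window held none of the motifs. The windows of Serpina1e and F9, which were not called, held matches too, and a link between matches and changes was not tested.

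**Figure D4:**
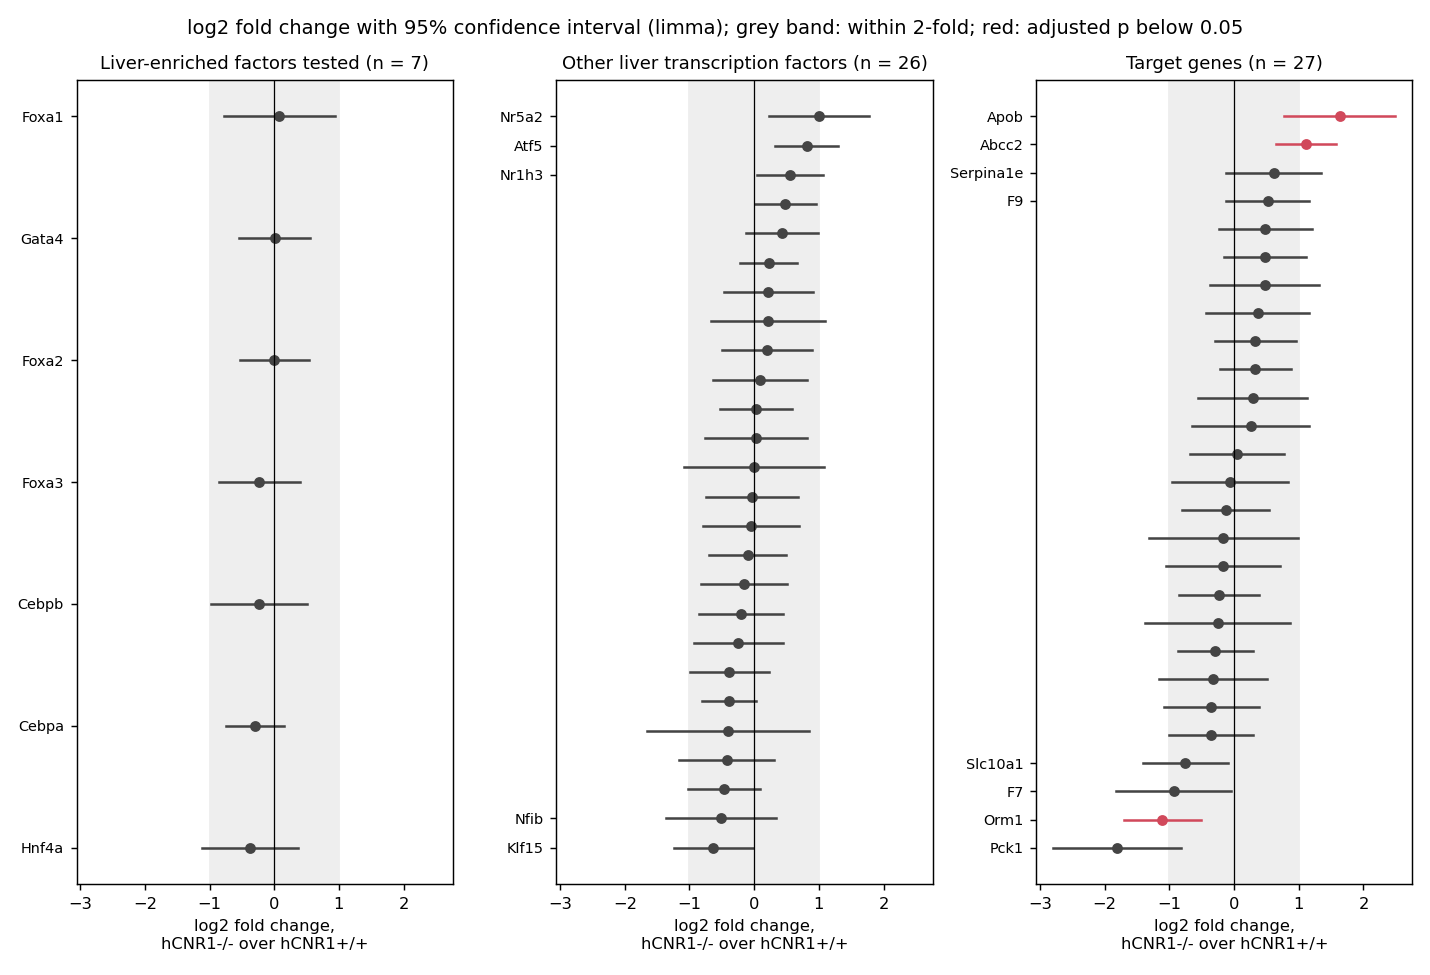
Log2 fold change (hCNR1-/- over hCNR1+/+) with the 95% interval from limma for the 7 tested factors, 26 other liver transcription factors and 27 target genes, with the genes named in the text labelled; the grey band marks changes within 2-fold and red marks an adjusted p below 0.05. The fitted values of the factors run from -0.38 to 0.07, and the interval of Hnf4a reaches outside the grey band. Apob, Abcc2 and Orm1 are the genes in red.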

How the data were processed

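Hepatocyte RNA (200 ng a sample, labelled with Cy3) was hybridised to 8 one-colour Agilent mouse arrays. The authors deposited spot intensities as Feature Extraction (version 12.0.3.1, protocol GE1_1200_Jun14, design build mm9, per the file headers) wrote it, background-corrected within the array and not scaled between arrays. A score per spot was deposited as well, and it differed by at most 0.005 from a z-score of log intensity computed within the array. The array analysis is otherwise given in the paper by reference to earlier work.

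Intensities were taken to log2 and each array's 75th percentile over 59305 non-control spots was subtracted. Spots flagged as outliers were left out and spots of a probe averaged. Of 55681 probes, 28331 matched a RefSeq gene by accession. Genes with 4 or more of 8 arrays well above background were tested by their brightest probe, with lmFit and eBayes of limma 3.58.1 in R 4.3.3, two-sided, with Benjamini-Hochberg adjustment over 11072 genes. Single genes also had a two-sided exact permutation test over 70 assignments. The fit was checked on simulated data. No more than 4 arrays a genotype limit the precision, and no spot was saturated.

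The factors and all gene lists were chosen with earlier results of these data known. Besides the factors, genes named were those of the other lists at an adjusted p below 0.05 and, of the rest, the 3 furthest up and down, the 2 most similar profiles of each factor, Cnr1 and Alb; 2 genes that meet this rule are counted in the lists but not reported here. Replicate numbers are slide columns. Alternatives covered scaling, background correction, filters, probe choice, variance models, array weights, a replicate block, a floor and each array left out. The normexp correction used the median spot signal. No slide or scan block was possible with 1 slide.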

Additional observations from a re-analysis of the deposited data

Results flagged for a closer look

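Of 46 groups of 4 arrays examined for a value apart from the others, for the factors and the genes named from the other lists, 2 were picked out by Dixon's criterion, which chance meets in about 1 group in 20. Cebpa on hCNR1-/- replicate 3 had a log2 signal of 5.04, above the 4.73 to 4.74 of the other hCNR1-/- arrays and inside the hCNR1+/+ range. Nr5a2 on hCNR1-/- replicate 4 had 1.77, above the 0.38 to 0.60 of the other hCNR1-/- arrays, on the dimmest array of the set.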

How the results depend on the processing

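No factor passed an adjusted p of 0.05 under any of the alternatives run, whose lowest adjusted p for a factor was 0.138 in limma (Foxa1 without hCNR1-/- replicate 4). At an unadjusted p below 0.05, normexp with quantile normalization called 3 factors (Hnf4a, Cebpa and Cebpb), quantile normalization 2 (Hnf4a and Cebpa), and scaling to the bright probes 1 (Cebpa). All of these were lower in hCNR1-/-, while Foxa1 was called higher without hCNR1-/- replicate 4. The share of all genes at this rule, 21.6% as reported, was not counted in those fits. The signs that turned belonged to Foxa1, Foxa2 and Gata4, and the cause was not tested. In that order the log2 fold changes were -0.084, -0.16 and -0.15 with the 75th percentile over bright probes, -0.48, -0.55 and -0.55 without scaling, -0.0038, -0.17 and -0.060 with quantile normalization, and -0.0175, -0.0175 and -0.04 as differences of the deposited z-scores. Median scaling turned Foxa2 to -0.044 and Gata4 to -0.036, and normexp turned Foxa1 to -0.012 and Foxa2 to -0.21. With 1 array left out, Foxa1 ran from -0.10 to 0.48, Foxa2 from -0.10 to 0.16 and Gata4 from -0.11 to 0.22. The median over all genes, 0.08 as reported, was -0.47 without scaling, 0.23 without a filter, 0.14 with genes above background on all 8 arrays and 0.18 with array weights.

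Counts over all genes moved far more. Most are out of 11072 genes. The fit by probe counts probes, out of 19985, while the fit without a filter had 21360 genes and the filter on all 8 arrays 8371. At the adjusted threshold of 0.05 the split of lower and higher genes was 144 and 325 as reported, 646 and 2176 with array weights, 692 and 889 by probe, 93 and 554 with a common floor, 51 and 30 with z-scores, 25 and 25 with median scaling, 14 and 8 without a filter, 29 and 1 without scaling, and 86 and 131 with quantile normalization. The bright-probe percentile turned the balance, with 209 lower and 101 higher. Normexp gave 120 and 172, the ordinary linear model 70 and 319, and the filter on all 8 arrays 54 and 341. With 1 array left out, 25 to 323 were lower and 13 to 1121 higher. By the fold rule, 415 were lower and 529 higher as reported, 145 and 324 with the filter on all 8 arrays, 172 and 333 with the floor, 10 and 1 with z-scores, 1081 and 1022 by probe, 630 and 87 without scaling, 159 and 143 with normexp, and 640 and 358 with the bright-probe percentile.

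Of the other liver transcription factors, 0 passed the adjusted test as reported, 3 with array weights, 1 with the floor, 1 with a variance trend, and 0 to 2 with 1 array left out. By the fold rule 1 passed as reported, 3 without a filter, 0 to 1 with 1 array left out, and 0 with the bright-probe percentile, array weights, z-scores, the mean of probes, median scaling, no scaling or normexp. Of the target genes, 3 passed the adjusted test as reported, 9 with array weights, 1 with the floor, 1 with the ordinary linear model, 0 with z-scores, median scaling, no filter or no scaling, and 0 to 4 with 1 array left out, the 4 being without hCNR1-/- replicate 4. These counts moved with those over all genes in some fits but not in all. With the floor, 554 genes were called higher against 325 as reported, while target genes called fell from 3 to 1. Array weights called 646 lower and 2176 higher of 11072 genes, beside 3 of 27 other factors and 9 of 28 target genes. By the fold rule 0 target genes passed with z-scores, against 4 as reported.

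Same-numbered arrays did not deviate together, with correlations of deviations of 0.21, -0.16, -0.05 and 0.02 for replicates 1 to 4. A fit with the replicate number as a block called 0 genes lower and 0 higher at an adjusted p below 0.05, and 0 target genes, with a lowest adjusted p among the factors of 0.472 in limma. Signal over background left Onecut1 and Prox1 without a fold change.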

Other observations

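The difference between 2 factors on the same array does not depend on scaling by 1 constant per array, though quantile normalization can change it. This comparison was added after the values had been seen. Over 21 pairs of the 7 tested factors, the change of the difference between genotypes ran from -0.45 to 0.37 log2 units, and 0 pairs had groups that did not overlap. The lowest exact permutation p was 0.0571, for Hnf4a minus Foxa2, which changed by -0.38, and after Benjamini-Hochberg adjustment over the 21 pairs the lowest p was 1.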
